A study of Mus musculus with 4 samples.

Results

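Ribosome-protected fragments (RPFs) of 10 genes of the integrated stress response were examined in spermatocytes that lack the elongation factor subunit eEF1G. The genes are the transcription regulators *Atf4*, *Atf5*, *Ddit3*, *Cebpg* and *Cebpb*, the inhibitor *Trib3*, and the effectors *Chac1*, *Sesn2*, *Ddit4* and *Fgf21*. They were taken by symbol from a table of 11598 genes, and all 10 were present. The genes were selected on pathway knowledge with the fold changes of *Eef1g*-cKO against control in these same libraries in view. Their fold changes and p-values below therefore describe where they lie among all genes and are not independent support. The libraries are Ribo-seq of leptotene/zygotene spermatocytes, the cells in which homologous chromosomes begin to pair, sorted by FACS from testes of 12 dpp C57BL/6J mice. There were 2 control libraries, labelled wild type, and 2 *Eef1g*-cKO libraries, in which *Stra8*-GFPCre, a recombinase expressed in male germ cells from the spermatogonial stage on, removed exons 2 to 7 of *Eef1g*. Controls were littermates, and the number of animals behind a library is not given in the sources used here. The only contrast is *Eef1g*-cKO against control.

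In the integrated stress response, kinases that sense amino acid shortage, unfolded proteins, heme shortage or viral RNA phosphorylate the initiation factor eIF2, which slows initiation on most mRNAs. A few mRNAs whose leaders carry short upstream reading frames, *Atf4* first among them, are then translated more. ATF4 binds DNA as a dimer with C/EBP proteins at composite C/EBP-ATF elements and activates genes of amino acid supply, redox balance and cell death.

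RPFs on *Eef1g* itself followed the labels, with 107 and 58 reads in the controls against 0 and 4 in *Eef1g*-cKO. Its level was 27.2 ± 0.567 FPKM in control and 3.13 ± 4.43 in *Eef1g*-cKO (SD, n = 2 each, limma adjusted p = 0.0731). Depth differed between the genotypes, at 2479504 and 1384282 gene reads for the controls against 223906 and 407979 for *Eef1g*-cKO, so that 1 read weighs most in *Eef1g*-cKO. All 12 markers of leptotene and zygotene cells had reads in every library, at 3961 to 5142 summed RPM (reads per 1000000 reads counted on genes) in control and 10072 to 10241 in *Eef1g*-cKO. The 12 spermatogonial markers summed to 3085 to 3626 RPM in control and 681 to 746 in *Eef1g*-cKO, and *Gfra1*, *Nanos3*, *Id4* and *Etv5* each had 0 reads in 1 *Eef1g*-cKO library. The 10 Sertoli cell markers in the table summed to 1203 and 295 in control and to 264 and 194 in *Eef1g*-cKO, where *Gata4* had no read. The 9 peritubular and endothelial markers summed to 316 to 348 in control and 112 to 120 in *Eef1g*-cKO. The part of these other cells in the values below was not tested, and in sorted bulk cells fewer cells of a type and fewer RPFs per cell cannot be told apart.

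The composite element was looked for in the promoters of the 10 genes, since ATF4 and its partners act there. With RefSeq windows of GRCm38.p6 that run from 250 bases before to 50 bases after each start site, the sequence TGATGNAAN was found on either strand in 3 of the 10 genes, *Chac1*, *Fgf21* and *Trib3*. It was present in 3.95% of the 32851 windows of all genes, and in 2.48% of the 8381 tested genes with a window. The windows of *Chac1* (chr2:119350992-119351241, plus strand) and *Fgf21* (chr7:45615491-45615740, minus strand) are shown up to the base before the start site because these are the 2 genes with the largest fold changes among the 10. For *Trib3* only the 29 bases around the match are shown (chr2:152344029-152344057, minus strand), because it lies inside the transcript, at bases 14 to 22 from the start site. Capitals mark the match, which in all 3 is read on the opposite strand and therefore appears as its reverse complement.
Chac1: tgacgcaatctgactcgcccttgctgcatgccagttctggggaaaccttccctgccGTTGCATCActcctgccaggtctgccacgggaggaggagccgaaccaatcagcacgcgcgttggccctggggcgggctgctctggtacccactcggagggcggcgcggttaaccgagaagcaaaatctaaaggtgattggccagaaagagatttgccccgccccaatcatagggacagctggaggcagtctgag
Fgf21: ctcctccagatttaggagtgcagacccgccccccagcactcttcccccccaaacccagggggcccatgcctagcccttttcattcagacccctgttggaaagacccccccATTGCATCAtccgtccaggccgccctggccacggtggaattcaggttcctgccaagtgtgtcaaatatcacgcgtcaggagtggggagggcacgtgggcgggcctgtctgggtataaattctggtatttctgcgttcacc
Trib3: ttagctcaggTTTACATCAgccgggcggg

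The match starts 194 bases before the start site in *Chac1* and 140 bases before it in *Fgf21*. The cAMP response element TGACGTCA was in no window of the 10 genes and in 1.79% of all windows. Of the tested genes with a window, 3.99% held it. Among the 8381 tested genes with a window, the 208 that held TGATGNAAN had -0.24 as their median log2 fold change, compared with -0.23 over all of them. Of the 208 genes, 3.37% were called increased, against 2.96% of all tested genes with a window. A match is a description of letters and not a binding site.

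RPF levels were compared with limma on log2(FPKM + 1) in the 10475 genes that averaged 1 FPKM or more. An RPF level depends on both mRNA amount and ribosomes per mRNA, and mRNA values were not used here. Which of them changed, and whether protein output did, was not tested. A gene was called when its Benjamini-Hochberg adjusted p was under 0.05 and its log2 fold change was above 1 or below -1. By this rule 2.87% of all tested genes were called increased and 4.97% decreased, and of the 10 stress response genes *Fgf21* was called increased and none was called decreased. By unadjusted p, 7.32% of all genes were called increased and 16.3% decreased, while *Chac1*, *Ddit4* and *Fgf21* were called increased and *Cebpb* decreased. Without *Eef1g*-cKO replicate 2 the 10 genes gave 2 increases by adjusted p. Of all genes, 5.13% were then called increased by adjusted p. Unadjusted p then called 5 of the 10 genes increased, where it called 9.54% of all genes, and 2 decreased, where it called 21.7% of all genes. Without either control library no gene of the table was called by adjusted p, while 548 and 479 genes were called increased by unadjusted p without control replicate 1 and 2, respectively. In 6 of the 10 genes both *Eef1g*-cKO values exceeded both control values, as did 24.6% of all genes, and in 2 both lay below, as did 37.7% of all genes. The median log2 fold change was 0.52 over the 10 genes and -0.23 over all genes tested. When each library was centred on its own median, all genes called increased numbered 521 and those called decreased 383, against 301 and 521 without centring. Centring adds the same amount to the log2 fold change of every gene, so each of the 10 rose with all others. It changed no direction among the 10.

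**Figure D1:**
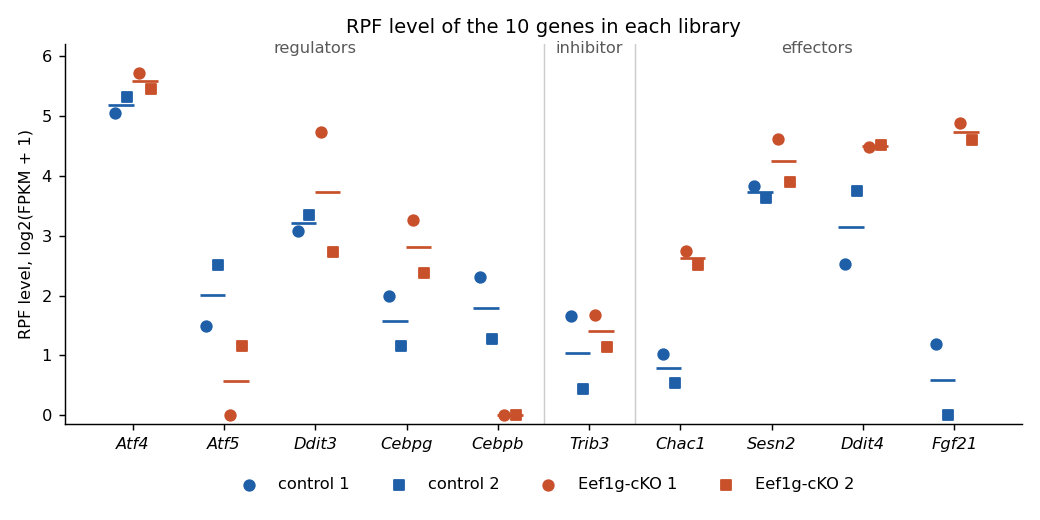
RPF level of the 10 genes in each library, as log2(FPKM + 1) on the vertical axis, with control in blue, *Eef1g*-cKO in red, replicate 1 as circles, replicate 2 as squares and bars at the means (n = 2 each). *Atf4* is highest in all 4 libraries, all 4 effectors have both *Eef1g*-cKO libraries above both controls, and *Cebpb* lies at 0 in both *Eef1g*-cKO libraries.

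Among the regulators, *Atf4*, which encodes the central transcription factor of the response (chr15:80255184-80257545, RefSeq GRCm38.p6), had 32.2 and 38.9 FPKM in control and 51.7 and 42.5 FPKM in *Eef1g*-cKO. These are 138 and 93 reads against 20 and 30. Both *Eef1g*-cKO libraries were thus above both controls, but by a small margin, and the log2 fold change was 0.40 (SE, the standard error, 0.24, limma adjusted p = 0.317). The pooled RPM was 1.32 times those of control, with an exact 95% counting interval of 0.955 to 1.80. Such intervals cover counting error only. They pool the reads of a genotype and so leave out the spread between its libraries. PCR copies are not independent molecules, so the intervals may also be too narrow. The gene stood at place 2670 of 10475 when genes were ordered by fold change from the top.

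*Cebpg* encodes a C/EBP partner of ATF4 (chr7:35046422-35056566). It had 3.00 and 1.23 FPKM in control and 8.55 and 4.17 FPKM in *Eef1g*-cKO, from 35 and 8 reads against 9 and 8. The groups did not overlap, and the log2 fold change was 1.23 (SE 0.57, limma adjusted p = 0.204). The pooled read ratio was 2.42 with a counting interval of 1.29 to 4.33, the only one among the 5 regulators that did not include 1.

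*Ddit3* encodes CHOP, a regulator tied to cell death under prolonged stress (chr10:127290793-127296291). Its level was 7.41 and 9.12 FPKM in control against 25.6 and 5.63 FPKM in *Eef1g*-cKO. The 2 *Eef1g*-cKO libraries fell on either side of the controls, on 5 and 2 reads. With all libraries the log2 fold change was 0.53 (SE 0.68, limma adjusted p = 0.628). Without *Eef1g*-cKO replicate 2 it was 1.53 (limma adjusted p = 0.0277), and without replicate 1 of that genotype it was -0.48, so each of these libraries decides its direction or its call.

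*Atf5* and *Cebpb* had lower values in *Eef1g*-cKO and 1 and 0 reads there in all. *Atf5*, a factor related to ATF4 and translated in a similar way (chr7:44812256-44816658), had 1.82 and 4.71 FPKM in control, from 9 and 13 reads, and 0 and 1.23 FPKM in *Eef1g*-cKO. At this depth a fitted fold change is no bound for it, and the pooled read ratio of *Eef1g*-cKO over control was 0.278 with a counting interval of 0.00673 to 1.72. *Cebpb* encodes a C/EBP factor of stress and inflammation (chr2:167688915-167690432). It had 3.99 and 1.43 FPKM in control, from 15 and 3 reads, and no read in either *Eef1g*-cKO library. At the control mean, 0.920 and 1.68 reads would be seen in the *Eef1g*-cKO libraries, and the upper limit of the read ratio was 1.39, so a decrease was not detectable at this depth. A floor of 3 reads per library corresponds to a mean of 6.84 FPKM in *Eef1g*-cKO, above the control mean of 2.71 FPKM, so no fold is given.

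The inhibitor *Trib3* encodes a pseudokinase that is induced by ATF4 and CHOP and restrains both (chr2:152337425-152344060). It had 2.16 and 0.352 FPKM in control and 2.18 and 1.20 FPKM in *Eef1g*-cKO. The groups overlapped, and each *Eef1g*-cKO value rests on 1 read. The pooled read ratio was 1.02, with a counting interval of 0.111 to 4.58 that leaves room for a change in either direction.

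The 4 effectors all had both *Eef1g*-cKO libraries above both controls, with a median log2 fold change of 1.60. *Fgf21* encodes a secreted hormone of the fasting and stress response (chr7:45613890-45615490). It had 1.28 and 0 FPKM in control, from 3 and 0 reads, and 28.3 and 23.3 FPKM in *Eef1g*-cKO, from 6 and 9 reads. The 2 libraries of each genotype lay close together and far from the other genotype. The pooled read ratio was 30.6 with a counting interval of 8.65 to 165, and limma's adjusted p was 0.0283. Without control replicate 1 or 2 the adjusted p was 0.129 or 0.165, respectively. By fold change *Fgf21* stood at place 5 of the 10475 genes. With a control mean of 0.639 FPKM it passed the filter on low values through its *Eef1g*-cKO libraries, as did *Chac1*, and any gene that did so has a higher *Eef1g*-cKO value.

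**Figure D2:**
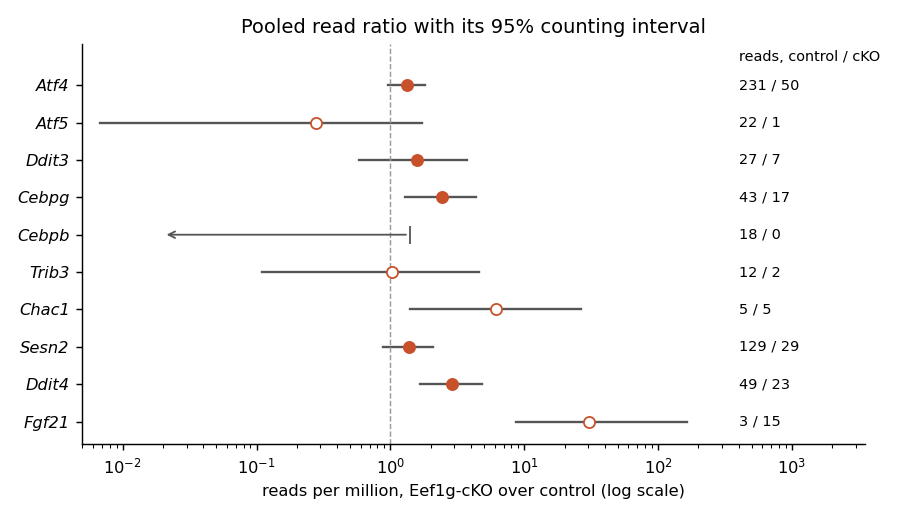
Ratio of pooled reads, scaled to RPM, *Eef1g*-cKO over control, on a log scale, with exact 95% counting intervals and the pooled reads of each genotype at the right. Open circles and the arrow mark genes with 3 or fewer reads in both libraries of 1 genotype, and the arrow ends at the upper limit for *Cebpb*; the intervals of *Cebpg*, *Chac1*, *Ddit4* and *Fgf21* lie above 1.

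*Chac1* encodes an enzyme that degrades glutathione and is a sensitive target of ATF4 (chr2:119351242-119354326). Its level was 1.03 and 0.460 FPKM in control and 5.69 and 4.69 FPKM in *Eef1g*-cKO. These values come from 4 and 1 reads against 2 and 3, and the total of 10 is the smallest that any gene in the table has. The pooled read ratio was 6.11 with a counting interval of 1.41 to 26.6, and limma's adjusted p was 0.0727.

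*Ddit4* encodes REDD1, which restrains the growth kinase complex mTORC1 through the TSC complex (chr10:59949675-59951770). It had 4.79 and 12.4 FPKM in control and 21.2 and 21.8 FPKM in *Eef1g*-cKO, from 20 and 29 reads against 8 and 15. The controls differed from each other more than the *Eef1g*-cKO libraries did, and both lay below them. The log2 fold change was 1.35 (SE 0.47, limma adjusted p = 0.119), the pooled read ratio was 2.87 and its counting interval 1.67 to 4.80. Without control replicate 1, the lower of the controls, the log2 fold change was 0.74 (limma adjusted p = 0.289). *Sesn2* encodes Sestrin 2, a leucine sensor that holds back mTORC1 through the GATOR complexes (chr4:132492804-132510456). It had 13.2 and 11.4 FPKM in control and 23.6 and 13.8 FPKM in *Eef1g*-cKO. The lower *Eef1g*-cKO library was little above the controls, and the log2 fold change of 0.52 (SE 0.36, limma adjusted p = 0.367) came with a read ratio of 1.37 and a counting interval of 0.886 to 2.07. Without *Eef1g*-cKO replicate 1 its log2 fold change was 0.16.

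**Figure D3:**
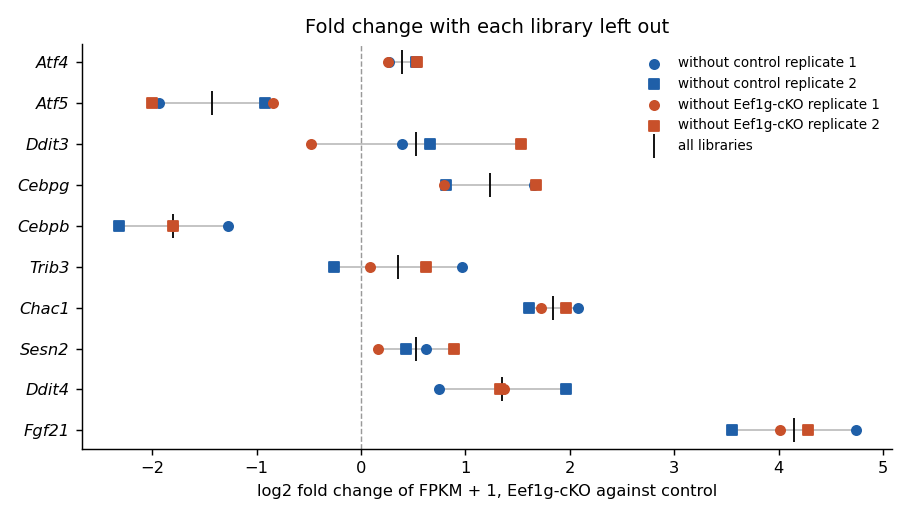
Log2 fold change of FPKM + 1, *Eef1g*-cKO against control, for the 10 genes with each of the 4 libraries left out in turn (coloured points) and with all libraries (black ticks). *Ddit3* runs from -0.48 to 1.53 and *Trib3* from -0.26 to 0.97, whereas the other 8 genes keep their direction.

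Summed over the 10 genes, 136 and 145 RPM in control compared with 290 and 206 in *Eef1g*-cKO, a ratio of means of 1.76, and of 2.10 without *Atf4*. The composition of the sum shifted, with *Atf4* supplying 42.9% of its reads in control and 33.6% in *Eef1g*-cKO. By length-corrected level, the order in control was *Atf4*, *Sesn2*, *Ddit4*, *Ddit3*, *Atf5*, *Cebpb*, *Cebpg*, *Trib3*, *Chac1* and *Fgf21*. Among neighbours in that order, the libraries did not overlap between *Atf4* and *Sesn2* or between *Ddit3* and *Atf5*, and overlapped between all others. In *Eef1g*-cKO the order was *Atf4*, *Fgf21*, *Ddit4*, *Sesn2*, *Ddit3*, *Cebpg*, *Chac1*, *Trib3*, *Atf5* and *Cebpb*. There, *Atf4* and *Fgf21*, *Fgf21* and *Ddit4*, and *Chac1* and *Trib3* were the neighbours whose libraries did not overlap. The nearest values of *Fgf21* and *Ddit4* were 23.3 and 21.8 FPKM, both in replicate 2, where 1 read of *Fgf21* is worth 2.59 FPKM. *Chac1* and *Trib3* rest on 2 and 3 reads against 1 and 1. The order within these pairs is therefore not settled. Nor are the lowest places settled. In control 3 reads of *Fgf21* correspond to 1.28 and 2.29 FPKM, above the mean of *Chac1*. In *Eef1g*-cKO 3 reads of *Atf5* or of *Cebpb* lie above the mean of *Trib3*. The genes whose levels over the 4 libraries were nearest to those of *Atf4* were *Nptn*, *Ufl1*, *Bre*, *Mettl14* and *Rab10*, at Euclidean distances of 0.175 to 0.229 in log2(FPKM + 1).

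The leaders of the 10 genes were read from GENCODE M21, taking 1 transcript per gene, because upstream start codons are what lets *Atf4* escape the block on initiation. *Atf4* had 3 upstream ATGs, 1 of which opened a frame that runs into the coding sequence. *Atf5* had 2, also with 1 such overlapping frame, *Ddit3* had 2, *Cebpg* 4 and *Sesn2* 1. The other 5 genes, *Fgf21*, *Chac1* and *Ddit4* among them, had none. Upstream ATGs were present in 49.4% of the 10068 tested genes with a leader and overlapping frames in 15.1%. Each gene has a single value in the table, so reads on upstream frames and on the coding sequence are summed and the shift between them could not be measured here. *Atf5* shares 571 bases with *Nup62*, *Ddit3* shares 77 with *Mbd6* and 71 with *Mars1*, and *Cebpg* shares 1084 with *Gm45095*, and the strand used in counting is not given, so reads of these 3 genes may include those of their neighbours.

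**Figure D4:**
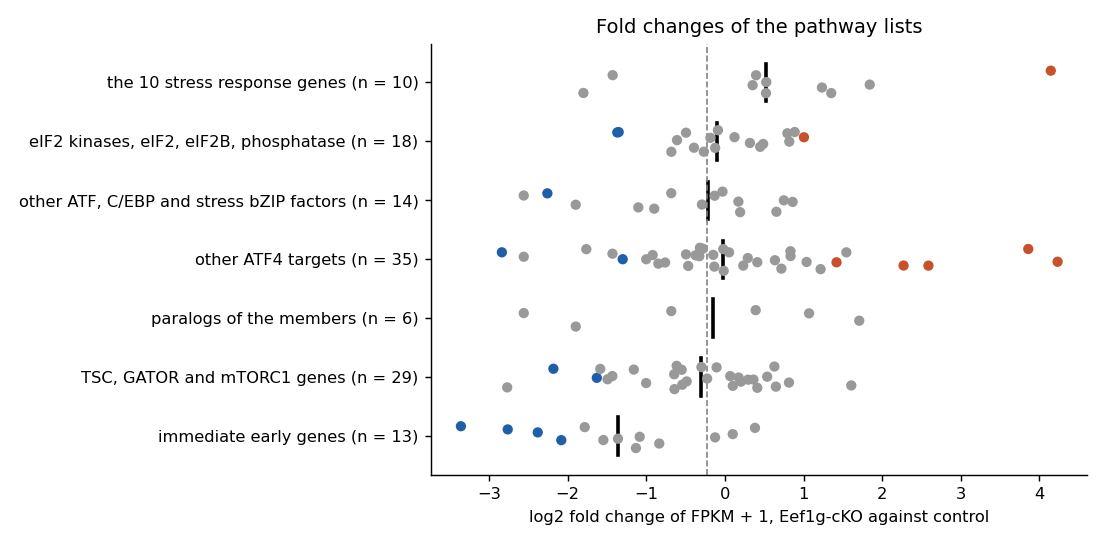
Log2 fold change of FPKM + 1, *Eef1g*-cKO against control, of each tested gene in the 10 stress response genes and in 6 related lists, 1 point per gene, with called increases in red, called decreases in blue, black bars at list medians and a dashed line at the median of all genes (-0.23). The largest increases after *Slc7a3* are *Fgf21* and *Herpud1*, and immediate early genes lie mostly to the left.

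Upstream of *Atf4*, 18 genes of the eIF2 kinases, eIF2, eIF2B and the eIF2 phosphatase were tested, with a median log2 fold change of -0.11. Of these, 1 was called increased (5.56%, beside 2.87% of all genes) and 2 decreased (11.1%, beside 4.97% of all genes). The increase was *Eif2s3y*, a Y-linked eIF2 gamma subunit gene (log2 fold change 1.01, limma adjusted p = 0.0482), and the decreases were *Eif2b4* (-1.37, adjusted p = 0.0484), a subunit of the eIF2 exchange factor, and *Ppp1ca* (-1.35, adjusted p = 0.0384), a phosphatase catalytic subunit. The kinase genes *Eif2ak1*, *Eif2ak3* and *Eif2ak4* were not called. *Eif2ak4*, which encodes the amino acid sensor GCN2, had 4.84 and 4.40 FPKM in control and 7.66 and 4.67 FPKM in *Eef1g*-cKO. *Eif2ak2* was below the level needed for a test. The call of *Eif2s3y* lies at both thresholds. It was lost with a pseudocount of 5 (log2 fold change 0.97) or 0.1 (limma adjusted p = 0.0626), with no filter (0.0544) and with protein-coding scaling (0.0509). With each library left out in turn, its log2 fold change ran from 0.89 to 1.12. *Eif2b4* was not called with centred libraries (limma adjusted p = 0.0599), with no filter (0.0569) or with a pseudocount of 0.1 (0.0671). Without *Eef1g*-cKO replicate 2 its log2 fold change was -1.15. *Ppp1ca* was not called with a pseudocount of 0.1 (limma adjusted p = 0.0572). With an untrended prior or thinned libraries no gene of this list was called, as over all genes. edgeR and DESeq2 each gave 1 increase and 2 decreases in this list. By edgeR these were 5.56% and 11.1% of the list, beside 8.75% and 11.2% of all genes. By DESeq2 they were 4.76% and 9.52%, beside 4.33% and 3.89% of all genes.

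Of 35 other tested ATF4 target genes, 5 were called increased and 2 decreased, and the list's median was -0.02. These calls were 14.3% and 5.71% of the list, beside 2.87% and 4.97% of all genes. The increases were led by *Slc7a3*, a transporter of cationic amino acids, with reads of 1 and 0 in the controls against 9 and 22 in *Eef1g*-cKO (read ratio 190, counting interval 31.6 to 7726). With a control mean of 0.0835 FPKM, *Slc7a3* passed the filter on low values through its *Eef1g*-cKO libraries, as *Fgf21* did. Its direction is therefore no independent support. *Asns*, the asparagine synthetase gene, had 25.7 and 41.2 FPKM in control and 227 and 178 FPKM in *Eef1g*-cKO (log2 fold change 2.59, SE 0.29, limma adjusted p = 0.0225). *Herpud1*, of the degradation of unfolded ER proteins, changed by 3.86, *Slc1a4*, a neutral amino acid transporter, by 2.27, and *Cars*, the cysteinyl-tRNA synthetase gene, by 1.42 on the log2 scale (limma adjusted p = 0.0212, 0.0457 and 0.0354). The decreases were 2 enzymes of serine synthesis. *Phgdh*, which catalyses its first step, had 34 reads in each control against 0 and 1 in *Eef1g*-cKO (read ratio 0.0899, counting interval 0.00224 to 0.518). With a mean of 0.655 FPKM in *Eef1g*-cKO, *Phgdh* passed the filter through its control libraries. *Psph*, of the last step, changed by -1.30 (limma adjusted p = 0.0479). Without *Eef1g*-cKO replicate 2 the decreases numbered 5, or 14.3% of the list, beside 13.7% of all genes in that fit. With centred libraries 7 genes of the list were called increased and 0 decreased, *Phgdh* and *Psph* being at limma adjusted p = 0.0546 and 0.0624. On the recovered reads edgeR called 7 increases and 2 decreases, *Phgdh* and *Atf3* but not *Psph*, and DESeq2 called 7 and 0. Of all genes, 4.97% were called increased with centred libraries, 8.75% by edgeR and 4.33% by DESeq2. The 2 edgeR decreases were 6.25% of the list, beside 11.2% of all genes. Other settings gave fewer increases. With a pseudocount of 0.1 only *Herpud1* stayed called, *Asns*, *Slc7a3* and *Cars* being at limma adjusted p = 0.0537, 0.0540 and 0.0545. With no filter the call of *Slc1a4* was lost (limma adjusted p = 0.0548). With an untrended prior or thinned libraries 0 were called, as over all genes.

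Of the other ATF, C/EBP and stress bZIP factors, 14 were tested, none was called increased and *Nfe2l2*, the NRF2 gene of the oxidative stress response, was called decreased (-2.26, limma adjusted p = 0.0420). By unadjusted limma p this list gave 0 increases and 3 decreases, and by adjusted p edgeR gave 0 and 2. These decreases were 21.4% and 18.2% of the genes tested in the list, beside 16.3% and 11.2% of all genes. In the main fit the decrease by adjusted p was 7.14% of the list, beside 4.97% of all genes. *Atf3*, another stress-induced factor, had 34 and 24 reads in the controls against 0 and 1 in *Eef1g*-cKO (read ratio 0.105, counting interval 0.00262 to 0.611, limma adjusted p = 0.0540). Among 6 tested paralogs of the 10 genes none was called by adjusted p, while by unadjusted p 1 was called increased, *Fgf23*, a hormone of phosphate balance (1.71, limma adjusted p = 0.0530), and 2 decreased, *Atf3* and *Cebpd*, the latter with no read in *Eef1g*-cKO and an upper limit of the read ratio of 0.895. By unadjusted limma p, 16.7% of the tested paralogs were called increased and 33.3% decreased, beside 7.32% and 16.3% of all genes. edgeR, which kept 3 of the paralogs, called 1 increased and 1 decreased by adjusted p, where it called 8.75% and 11.2% of all genes. *Sesn1*, a relative of *Sesn2*, had 2.29 and 1.08 FPKM in control and 6.69 and 2.94 FPKM in *Eef1g*-cKO. Downstream of *Ddit4* and *Sesn2*, 29 genes of the TSC, GATOR and mTORC1 complexes had a median of -0.30, with none called increased and 2 decreased, *Lamtor4* of the lysosomal anchor of mTORC1 (-2.18, limma adjusted p = 0.0307) and *Tsc2*, through which REDD1 acts (-1.63, limma adjusted p = 0.0475). By unadjusted p limma gave 1 increase and 6 decreases there, and by adjusted p edgeR gave 1 and 4. By limma 6.90% of this list was called decreased by adjusted p and 20.7% by unadjusted p, beside 4.97% and 16.3% of all genes. By edgeR 14.8% was called decreased, beside 11.2% of all genes. Centring, no filter and DESeq2 each left 1 decrease. *Tsc2* was then at limma adjusted p = 0.0566 and 0.0567, and *Lamtor4* at 0.0518 by DESeq2. With a pseudocount of 0.1, an untrended prior or thinned libraries 0 were called. Of 13 tested immediate early genes, which respond within minutes to stimulation and to tissue handling, none was called increased and 4 decreased, *Junb*, *Dusp1*, *Ier3* and *Btg2*, with a list median of -1.36. All 4 had 3 or fewer reads in both *Eef1g*-cKO libraries, so their pooled read ratios are given. These were 0.0655 for *Junb* (counting interval 0.0134 to 0.193), 0.0971 for *Dusp1* (0.0116 to 0.358) and 0.149 for *Btg2* (0.0303 to 0.446). *Ier3* had 12 and 6 reads in the controls and none in *Eef1g*-cKO, with an upper limit of 1.39, so that, as for *Cebpb*, its reads do not settle a decrease despite the limma call. Unadjusted limma p gave 0 increases and 7 decreases among these genes, and edgeR gave 0 and 5 by adjusted p. Decreases were 30.8%, 53.8% and 41.7% of the tested immediate early genes by adjusted limma p, unadjusted limma p and edgeR. Over all genes they were 4.97%, 16.3% and 11.2%, respectively.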

How the data were processed

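RPF levels were taken from 1 deposited table of 4 libraries, 2 per genotype. The authors gave FPKM per gene, and normalized counts, a signal made by dividing counts by a size factor per library. All of those counts were whole multiples of 1 step (tolerance 0.001 read), which gave back the reads, and FPKM is per 1000000 reads counted on genes. The deposited log2 fold changes, standard errors, test scores and p-values of the authors' own comparison were not used, nor was their mean normalized count; the deposited gene length served as such. The submitters' processing notes name cutadapt, Bowtie and STAR, with the builds mm10 and hg38; the counter, annotation, strand setting and test are not given in the sources used here. Genes listed have at least 10 reads in all, and 33 of 11598 symbols had no match in RefSeq GRCm38.p6.

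limma 3.58.1 (R 4.3.3) was fitted to log2(FPKM + 1) with a trended prior variance in genes averaging 1 FPKM or more, without covariates. Fold changes on this scale understate those of low genes. Read ratios have exact conditional (Clopper-Pearson) 95% intervals from scipy 1.17.1, and genes with 3 or fewer reads in both libraries of a genotype are described by them. Alternatives were other pseudocounts, filters and scalings, an untrended prior, the replicate number as a block, each library left out, thinning all libraries to 223906 reads, and edgeR 4.0.16 and DESeq2 1.42.0 on the reads. The scripts were tested on simulated data. Replicates of a genotype differed beyond sampling noise (chi-square per degree of freedom 11.8 in control and 1.81 in *Eef1g*-cKO), but nothing says that they came from separate animals, so p-values measure the spread between these libraries only.

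The 10 genes and the gene lists were chosen with earlier results of these data known. The naming rule took from each list the genes called, by size of change. It then took those of largest change with over 3 reads in both libraries of a genotype, up to 6. Not all of these are described above. Left out were *Dele1*, *Eif2s2*, *Oma1*, *Creb1*, *Cebpz*, *Atf7*, *Cebpa*, *Sesn3*, *Castor1*, *Nprl3*, *Castor2*, *Mlst8*, *Jund* and *Jun*, none of them called. Genes outside this rule (*Psph*, the kinase genes) were chosen after their values were seen. Macrophage and blood markers (0 of 7 in the table) and Leydig cell markers (4 of 7, 24.6 to 25.3 RPM in control, 7.35 to 8.93 in *Eef1g*-cKO) were also checked. So were markers of pachytene cells and spermatids (5 of 12, 384 to 475 RPM in control, 607 to 757 in *Eef1g*-cKO). The higher sum does not describe that list. Of its 5 tested genes 1 had a positive and 4 a negative log2 fold change, with a median of -1.46. In 4 of the 5, both *Eef1g*-cKO libraries had 3 or fewer reads.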

Additional observations from a re-analysis of the deposited data

How the results depend on the processing

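Over 154 refits of the 10 fold changes, 145 kept direction and, where an adjusted p was given, side of the adjusted p threshold. Settings whose filter dropped a gene are not among them. All of the 10 genes but *Fgf21* were uncalled in the main fit, so for these the count mostly describes genes that stayed uncalled. The reversals were *Ddit3* and *Trib3*, which ranged from -0.48 to 1.53 and from -0.26 to 0.97 with each library left out, and *Sesn2* (-0.14 with thinned libraries). The call of *Fgf21* was lost (0 of the 10 genes increased) with a pseudocount of 0.1, with an untrended prior and with thinned libraries. In these 3 settings, 3 to 4 of the 10 genes were increased by unadjusted p, beside 6.92% to 7.57% of all genes. The call was also lost without either control library, which leaves 1 control. With a library left out, its genotype keeps 1 library, so counts of called genes in such fits rest on the spread of the other genotype alone. By unadjusted p, DESeq2 called 1 of the 10 genes increased, beside 6.60% of all genes. Of the 10 genes, 0 were called decreased by unadjusted p with a pseudocount or a minimum mean of 5, by edgeR in its 3 forms and by DESeq2. The edgeR filter dropped *Atf5*, *Ddit3*, *Cebpb*, *Trib3* and *Chac1*, and DESeq2 left the adjusted p of *Atf5*, *Cebpb*, *Trib3* and *Chac1* as NA. Over all genes, 301 increases and 521 decreases by adjusted p became 29 and 47 with a pseudocount of 0.1, and 521 increases with centred libraries. Each library left out gave 0 to 537 increases and 0 to 1432 decreases, with 0 of both without control replicate 1 (548 and 1013 by unadjusted p) and replicate 2 (479 and 795). edgeR gave 705 and 904, 700 and 880 with DESeq2's size factors and 689 and 876 with no filter, and DESeq2 gave 502 increases. With an untrended prior and with thinned libraries limma called 0 and 0, where unadjusted p gave 793 and 1811, and 715 and 1256. The replicate number as a block gave 822 decreases over all genes and changed no call of the 10 genes by adjusted p. Same-numbered libraries deviated together with r = -0.00804, so the numbers were not taken to pair libraries. The cause of these differences was not tested. Depth in *Eef1g*-cKO, at 5 and 8 reads for the median gene, limits what can be seen for *Atf5*, *Cebpb*, *Trib3* and *Chac1*.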
